A study of Arabidopsis thaliana with 9 samples.

Results

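Arabidopsis plants in which the same gene, MSH1, had been suppressed by RNA interference (RNAi) were sampled as 2 phenotypes, and the comparison described here set the transcripts of stunted plants directly against those of variegated plants. Members were chosen by sample title alone: the 3 arrays of stunted plants and the 3 arrays of variegated plants, 6 of the 9 arrays in the series, across all 22746 probe sets that are not array controls. The other 3 arrays held wild-type Col-0, and the wild-type level is given beside each named gene. All plants were 8 weeks old, carried the Col-0 background and had grown in a greenhouse under a cycle of 12 hours of day and 12 hours of night. Whole above-ground tissue was extracted, with no further treatment in any group, and the RNA was labelled with biotin for Affymetrix 3′ expression arrays. Both RNAi groups are labelled as transgenic lines. The promoter of the RNAi construct, and whether the 2 phenotypes came from separate insertions, are not given in the sources used here.

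MSH1 is a nuclear gene for a MutS-type DNA repair protein that is sent to mitochondria and plastids, where it keeps the organelle genomes from recombining at repeated sequences. Plants that lack it are known for pale leaf sectors and, in some individuals, for dwarfing, late flowering and altered stress responses. Mitochondria and plastids in turn report their state to the nucleus, and a set of nuclear genes for mitochondrial and stress proteins is known to respond when respiration is disturbed. MSH1 has no probe set with a listed gene name here, so its own suppression was not analysed.

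Values are the authors' log2 expression values, so a difference of 1 is a 2-fold difference. A probe set or gene passed where the p-value of the limma model, adjusted over all probe sets by the Benjamini-Hochberg method, was under 0.05. Between stunted and variegated plants, 396 of 22746 probe sets passed (1.74%), with 198 higher and 198 lower in stunted plants. Among them, 94 differed at least 2-fold, 55 higher and 39 lower. Counted by named gene, 189 of 13355 passed (1.42%), of which 76 were higher in stunted plants (0.569%) and 113 lower (0.846%). The median difference over all genes was -0.01. In all 189 genes the 3 stunted and the 3 variegated arrays did not overlap, which also held for 16.0% of all genes. In bulk tissue a lower value can come from fewer cells of a type or from less RNA per cell, and these cannot be told apart here.

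**Figure D1:**
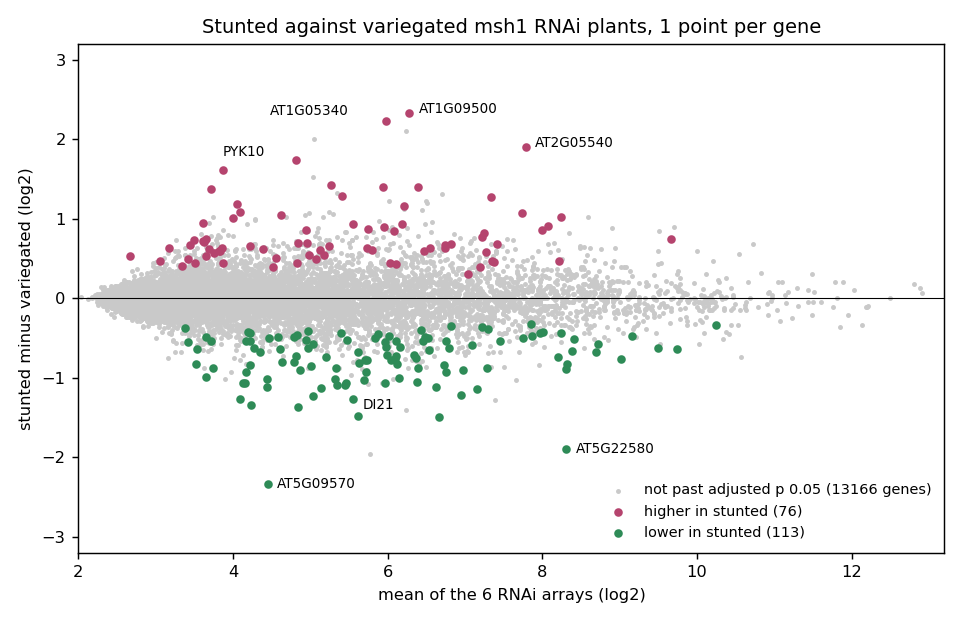
Difference between stunted and variegated plants (log2, vertical axis) against the mean of the 6 RNAi arrays (log2, horizontal axis), 1 point per gene, with genes past the threshold in colour. The 76 genes higher and the 113 lower in stunted plants are spread over most of the range of levels, and AT5G09570 (-2.34) and AT1G09500 (2.33) lie farthest from 0 among the genes that passed.

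For most of these transcripts the wild-type level lay on the variegated side. The wild-type mean was nearer the variegated than the stunted mean for 186 of the 198 probe sets that were higher in stunted plants and for 181 of the 198 that were lower, together 92.7%, against 60.1% of all probe sets. Of the 198 higher probe sets, 178 were also higher than in wild type at the same threshold, and of the 198 lower ones 171 were also lower than in wild type. In the comparison of variegated with wild-type plants, 12 of the higher and 12 of the lower probe sets passed, while 20 of each passed in neither comparison with wild type. These comparisons share arrays, so the counts are a description of where the levels lay and not separate evidence. Over all probe sets, 9.66% passed between stunted and wild-type plants (4.91% higher and 4.75% lower) and 0.444% between variegated and wild-type plants. Counted by gene, 3.86% were higher and 4.2% lower in stunted than in wild-type plants. No probe set passed in both comparisons with wild type with opposite signs.

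The 6 RNAi arrays were alike, at r = 0.9797 to 0.9902 between stunted and variegated arrays across probe sets, 0.9855 to 0.9928 within stunted and 0.9935 to 0.9946 within variegated. A control signal that reflects RNA integrity and labelling, the 3′ minus the 5′ actin signal, was 1.42, 1.59 and 1.95 in stunted plants and 0.95, 1.05 and 1.45 in variegated plants, with 1.11, 1.11 and 1.56 in wild type (exact permutation p = 0.2, two-sided, smallest possible 0.1). That test did not pair arrays, and at each replicate number the stunted value was above the variegated value. With this actin signal as a covariate, 79 probe sets passed in place of 396, and 52 were among the 396. All 189 genes kept their direction with the covariate and 21 kept their call, and the median ratio of the difference with the covariate to that without it was 0.947. Its part in the results was not tested. The 25S rRNA control signal ranged from 4.5 to 8.99 in stunted and from 4.49 to 8.66 in variegated arrays (exact permutation p = 0.7). The count of calls also rested on single arrays: it was 48 without variegated replicate 1, 85 without stunted replicate 2, 117 without variegated replicate 2, 184 without variegated replicate 3, 212 without wild-type replicate 2, 265 without stunted replicate 3 and 1404 without stunted replicate 1. All 189 genes kept their direction in each of the 9 omissions, which was fixed in advance because their stunted and variegated arrays did not overlap. Of the 189, 20 kept their call in every omission, 7 higher and 13 lower.

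Of 8 nuclear genes listed for mitochondrial dysfunction and alternative respiration, 2 fell in stunted against variegated plants (0.846% of all genes did) and none rose. The list median was -0.28. AT5G09570 encodes a small cysteine-rich mitochondrial protein and showed the largest fall of all genes that passed. It read 3.15, 3.47 and 3.24 in the stunted plants, 5.96, 5.94 and 4.96 in the variegated plants and 3.17, 3.3 and 2.97 in wild type. The stunted arrays thus lay among or just above the wild-type arrays, both near or below the array medians, and every variegated array lay above all the others. AT5G09570 fell by 2.34 ± 0.24 (SE), a 5.05-fold difference (adjusted p = 0.00361), and passed in all 9 omissions and with the actin covariate (adjusted p = 0.0346). AT2G21640, a marker gene of oxidative stress and mitochondrial dysfunction, had a different order. Its values were 5.67, 5.21 and 5.41 in stunted plants, 6.84, 6.63 and 6.01 in variegated plants and 3.73, 4.09 and 4.01 in wild type. Here both RNAi groups lay above wild type, and the stunted group stood between the other two. The stunted level was lower than the variegated by 2.1-fold (log2 difference -1.07 ± 0.21 (SE), adjusted p = 0.0408), and this call was lost in 7 of 9 omissions, each of which leaves fewer arrays, and with the actin covariate (adjusted p = 0.287).

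The mitochondrial genome itself was represented by 16 genes, of which 1 fell (0.846% of all genes did) and none rose. That gene was nad1, a core subunit of respiratory complex I, at 3.33, 3.31 and 3.27 in stunted plants, 4.09, 4.43 and 4.01 in variegated plants and 3.43, 3.43 and 3.38 in wild type. All variegated arrays were above all stunted and wild-type arrays, and the latter groups differed by -0.11. Stunted and wild-type values lay near the array medians (3.37 to 3.43), so the size of the fall is uncertain. Between stunted and variegated plants nad1 fell by 0.87 ± 0.10 (SE, 1.83-fold, adjusted p = 0.00684), passed in every omission, and had an adjusted p = 0.066 with the actin covariate. Over the 16 genes the median difference was -0.15 and 13 were below 0, whereas 45.9% of all genes were above 0. The other members with an unadjusted p under 0.05, which 13.7% of all genes had, were nad5 (-0.29), nad4L (-0.20) and ccb452 (-0.37), and none of these passed. The medians of the same 16 genes against wild type were 0.17 in stunted and 0.32 in variegated plants, on shared wild-type arrays. How well the array labelling captures organelle-encoded transcripts was not tested.

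AT2G07722 lies in the copy of mitochondrial DNA that is inserted in a nuclear chromosome, so its probes may also read mitochondrial transcripts, as those of nad1 may read the nuclear copy. Its values were 3.54, 3.4 and 3.44 in stunted, 4.78, 5.15 and 4.24 in variegated and 3.34, 3.45 and 3.34 in wild-type plants. The pattern is that of nad1, with the variegated arrays alone raised (fall of 1.26 ± 0.19 (SE), 2.4-fold, adjusted p = 0.0165). Its stunted and wild-type values were likewise near the array medians. The call ended without stunted replicate 2 or variegated replicate 1 (adjusted p up to 0.0882) and with the actin covariate (0.124). Among the other nuclear genes of the list, the alternative NAD(P)H dehydrogenases of the inner mitochondrial membrane did not pass: NDB1 differed by -0.29, NDB2 by -0.22, NDB3 by -0.29, NDB4 by -0.28 and NDC1 by 0.33.

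**Figure D2:**
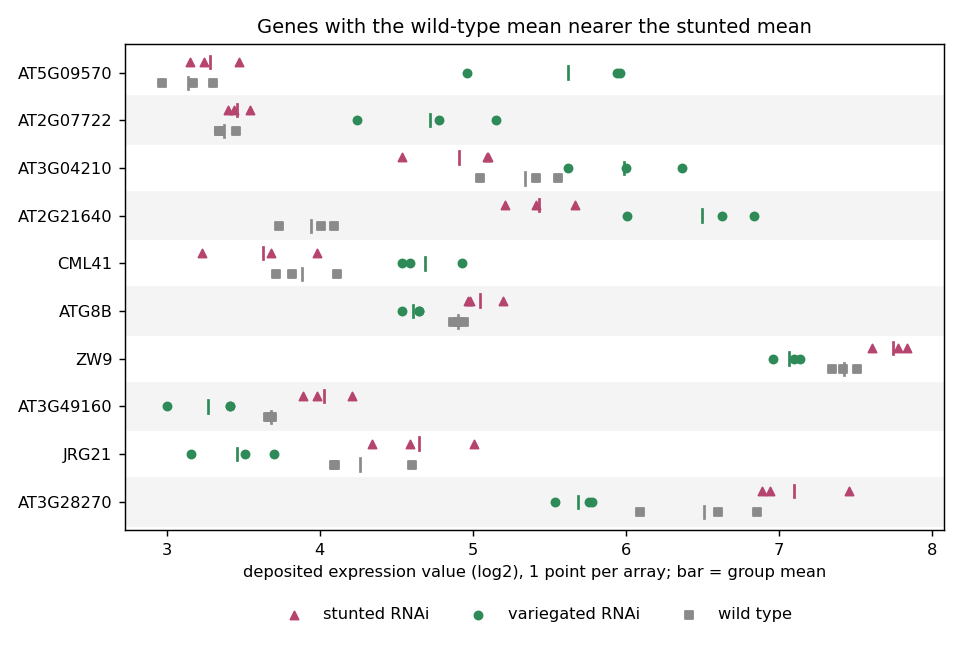
Expression values (log2, horizontal axis) of the 5 largest falls and the 5 largest rises among genes whose wild-type mean was nearer the stunted than the variegated mean, 1 point per array and a bar at each group mean. AT5G09570 and AT2G07722 are raised in the 3 variegated arrays alone, and AT2G21640 has both RNAi groups above wild type.

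Among the largest falls, AT5G22580, a stress-responsive protein with an alpha-beta barrel domain, read 7.81, 6.73 and 7.55 in stunted plants, 9.32, 9.22 and 9.24 in variegated plants and 9.76, 9.68 and 9.78 in wild type. The stunted arrays were lowest and the most scattered. The fall was 1.90 ± 0.22 (SE), or 3.72-fold (adjusted p = 0.00684), and it missed the threshold without variegated replicate 1 (0.0504) and with the actin covariate (0.0556). AT2G14900, of the gibberellin-regulated family of small secreted proteins, stood at 5.15, 4.48 and 5.01 in stunted, 6.6, 6.14 and 6.34 in variegated and 7.16, 7.03 and 6.99 in wild-type plants. The 3 groups did not overlap and were ordered stunted, variegated, wild type (stunted below variegated by 2.79-fold, log2 difference -1.48 ± 0.17 (SE), adjusted p = 0.00685, and 0.0628 with the actin covariate). AT2G14900 did not pass between variegated and wild-type plants (adjusted p = 0.134). AT3G28500, an acidic P2 protein of the ribosomal stalk, was at 3.31, 3.89 and 3.48 in stunted, 4.90, 4.82 and 4.99 in variegated and 5.24, 5.12 and 4.88 in wild-type plants. Variegated and wild-type arrays overlapped, and the stunted arrays were lower by 2.54-fold (log2 difference -1.34 ± 0.15 (SE), adjusted p = 0.00538). AT2G14900 and AT3G28500 passed in all 9 omissions, and the call of AT3G28500 ended with the actin covariate (0.0532).

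Further falls of at least 2-fold came from diverse families. The lipid-transfer-type proteins AT5G55450 and AT1G62500 fell by 1.49 ± 0.22 and 1.37 ± 0.28 (SE). AT5G55450 averaged 5.92 in stunted, 7.41 in variegated and 7.56 in wild-type plants, and AT1G62500 averaged 4.15, 5.52 and 6.35 in the same order. AT1G04040, an acid phosphatase-type protein, was at 6.20, 5.90 and 6.06 in stunted plants, 7.20, 7.08 and 7.26 in variegated plants and 7.14, 7.07 and 7.28 in wild type. Variegated and wild-type values of AT1G04040 interleaved, and the fall of 1.12 ± 0.10 (SE) passed in every omission and with the actin covariate (adjusted p = 0.0016 without it, 0.0175 with it). RING1, a membrane-linked ubiquitin ligase of the RING type, averaged 6.34, 7.56 and 7.17 in stunted, variegated and wild-type plants, and the calmodulin-like protein AT2G41410 averaged 6.58, 7.72 and 7.42. Their falls were 1.22 ± 0.19 and 1.14 ± 0.18 (SE). AT1G27030 (means 4.57, 5.70 and 6.69) and AT3G13980 (3.89, 5.0 and 4.91) completed the 14 largest. The calls of AT5G55450, AT1G62500, RING1, AT2G41410, AT1G27030 and AT3G13980 each ended without variegated replicate 1 (largest adjusted p over omissions 0.0727, 0.193, 0.0865, 0.0919, 0.0913 and 0.0665) and with the actin covariate (0.0981, 0.332, 0.127, 0.0784, 0.0853 and 0.085).

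**Figure D3:**
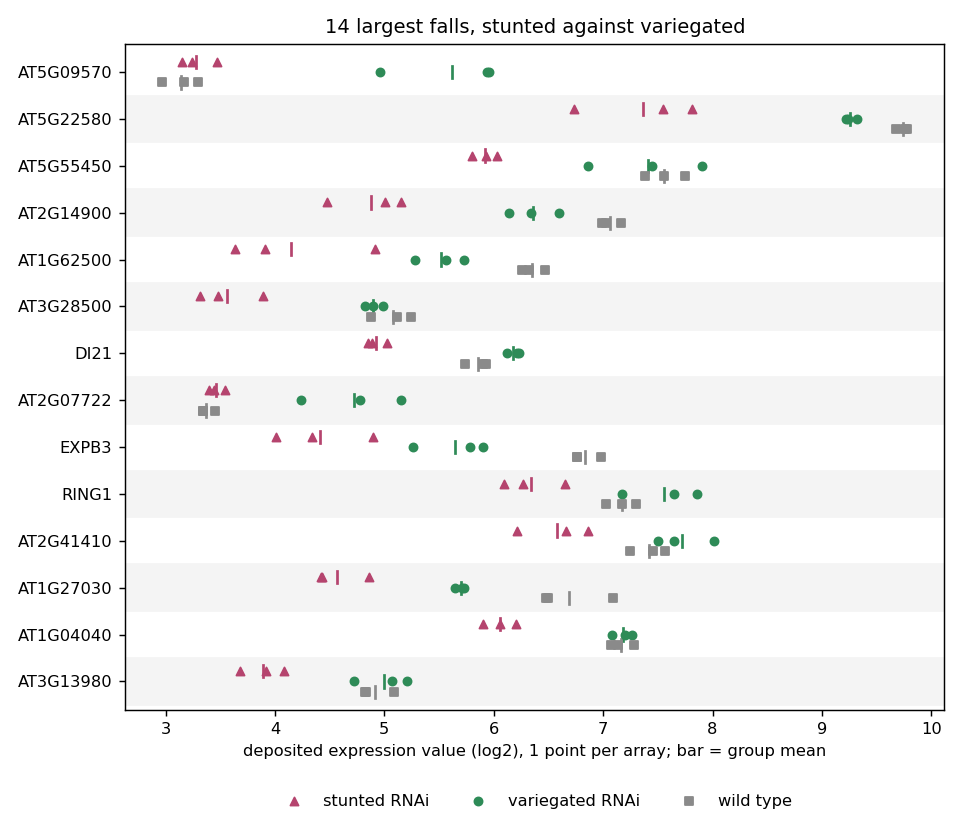
Expression values (log2, horizontal axis) of the 14 genes with the largest falls in stunted against variegated plants, 1 point per array and a bar at each group mean. In 12 of them the wild-type mean is nearer the variegated mean, and in AT5G09570 and AT2G07722 it is nearer the stunted mean.

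Some genes for growth of the cell wall were lower in the stunted plants. Expansins loosen the wall as cells enlarge. Of 18 expansins measured, 2 fell (0.846% of all genes did) and none rose, 16 were below 0 and the median was -0.24, while 45.9% of all genes were above 0. EXPB3, a beta-expansin, had 4.90, 4.34 and 4.01 in stunted plants, 5.90, 5.78 and 5.26 in variegated plants and 6.76, 6.98 and 6.76 in wild type. The 3 groups formed 3 separate steps, and the stunted step was 2.35-fold below the variegated one (log2 difference -1.23 ± 0.23 (SE), adjusted p = 0.0332). Between variegated and wild-type plants EXPB3 did not pass (adjusted p = 0.067). EXPB1 averaged 3.14 in stunted, 3.69 in variegated and 3.39 in wild-type plants, a fall of 0.55 ± 0.10 (SE, adjusted p = 0.0287). Members that did not pass included EXLA1 at -1.08, EXPA4 at -0.78, EXPA8 at -0.53 and EXPA16 at -0.53, with adjusted p from 0.0941 to 0.172.

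The GH9 family holds endoglucanases that trim cellulose and related glucans. Of 15 measured, 2 fell (0.846% of all genes did) and none rose, with a median of -0.06. GH9B8 was at 3.3, 2.98 and 3.03 in stunted, 3.96, 3.87 and 3.96 in variegated and 5.22, 4.97 and 5.06 in wild-type plants. Again the variegated arrays lay between the others without overlap, and the fall from variegated to stunted was 0.83 ± 0.10 (SE, 1.77-fold, adjusted p = 0.00742). GH9B13 averaged 4.01, 4.69 and 5.17 in stunted, variegated and wild-type plants (fall of 0.68 ± 0.13 (SE), adjusted p = 0.0365). CSLC04, which makes the glucan backbone of xyloglucan, averaged 4.90, 5.77 and 6.08 (fall of 0.88 ± 0.15 (SE), adjusted p = 0.0244) and was the 1 of 7 cellulose synthase-like genes that passed. None of 9 xyloglucan-remodelling XTH genes passed (median -0.04, XTH32 at -0.86 with an adjusted p = 0.0885), nor did any of the 8 genes of a primary wall list that shares XTH members with it (median -0.08).

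Tubulins, the subunits of microtubules, leaned the same way without any passing. Of 7 measured, none rose or fell, 6 were below 0, 5 had stunted arrays wholly below the variegated arrays, and the median was -0.40. Over all genes, 45.9% were above 0, and in 16.0% the stunted and variegated arrays did not overlap in either direction. TUB5 averaged 6.0, 6.82 and 6.80 in stunted, variegated and wild-type plants (adjusted p = 0.0667), TUB6 averaged 7.51, 7.91 and 8.24 (0.0598), and TUA1 was the exception at 0.28. The list means of the 7 tubulins were 6.12, 6.07 and 6.13 in stunted, 6.47, 6.4 and 6.6 in variegated and 6.67, 6.62 and 6.84 in wild-type plants. Among 4 cell division genes none passed, and the differences were between -0.09 and -0.06. The calls of EXPB3, EXPB1, GH9B8, GH9B13 and CSLC04 all ended without variegated replicate 1 and, apart from GH9B8, also without stunted replicate 2 (largest adjusted p over omissions 0.149, 0.094, 0.0518, 0.133 and 0.0852). They passed in 2, 3, 8, 3 and 5 of the 9 omissions. With the actin covariate, whose signal was higher in the stunted group, their adjusted p ranged from 0.0713 to 0.242.

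CLE41 encodes the peptide that phloem cells send to the vascular cambium to keep it dividing. It was at 5.52, 5.13 and 5.14 in stunted, 6.24, 6.28 and 6.03 in variegated and 6.42, 6.31 and 6.14 in wild-type plants. Variegated and wild-type arrays overlapped, and the stunted plants lay below both (fall of 0.92 ± 0.13 (SE), 1.89-fold, adjusted p = 0.0134, lost without stunted replicate 2, variegated replicate 1 or variegated replicate 2, at up to 0.0711, and 0.0742 with the actin covariate). CLE44, a gene for the same mature peptide, differed by -0.39 and did not pass (adjusted p = 0.15). Of 17 CLE and RALF peptide genes, CLE41 alone passed, and it was also the 1 of 6 vascular markers that passed. The other vascular markers ranged from -0.39 to 0.09.

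DI21, a drought-induced gene, gave the smallest p-value of all named genes. It was at 4.89, 4.85 and 5.02 in stunted plants, 6.23, 6.21 and 6.12 in variegated plants and 5.90, 5.74 and 5.93 in wild type. Stunted plants were below and variegated plants above the wild-type arrays, without overlap. The fall of 1.27 ± 0.08 (SE, 2.41-fold) had an adjusted p = 0.000306, passed in all 9 omissions and passed with the actin covariate (0.00784). Among the 7 abscisic acid, drought and cold genes it was the 1 that passed, and the others went both ways, from AT3G02480 at 2.11 (adjusted p = 0.157) and LEA4-5 at 0.74 (0.0845) to the dehydrin LTI30 at -1.03 (0.165). PORB, a light-dependent enzyme of chlorophyll synthesis, averaged 9.42 in stunted, 10.06 in variegated and 10.25 in wild-type plants. It fell by 0.64 ± 0.13 (SE, adjusted p = 0.0474, and 0.0399 with the actin covariate), and the call was lost in 6 of 9 omissions. The other 9 chlorophyll synthesis genes lay between -0.10 and 0.11, and none of 10 nuclear photosystem and antenna genes passed (median -0.10).

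AT3G04210 and CML41 had their highest levels in variegated plants, without passing between variegated and wild-type plants (adjusted p = 0.275 and 0.119). AT3G04210, a TIR-type protein of the immune receptor class, averaged 4.91 ± 0.32 in stunted, 5.99 ± 0.37 in variegated and 5.34 ± 0.26 in wild-type plants (SD, n = 3), a fall of 1.09 ± 0.22 (SE, adjusted p = 0.0468). CML41, a calmodulin-like calcium sensor, averaged 3.63 ± 0.38, 4.69 ± 0.21 and 3.88 ± 0.21 in the same order (SD, n = 3), a fall of 1.06 ± 0.19 (SE, adjusted p = 0.0315). The stunted and wild-type arrays of each gene overlapped and the variegated arrays were highest. AT3G04210 passed in 1 of the 9 omissions and CML41 in 4, with adjusted p up to 0.171 and 0.133. With the actin covariate AT3G04210 passed (0.0356) and CML41 did not (0.183).

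Turning to transcripts that were higher in stunted plants, the largest rise was that of AT1G09500, a protein of the cinnamyl-alcohol dehydrogenase type. It read 6.96, 7.64 and 7.74 in stunted plants, 4.28, 5.26 and 5.79 in variegated plants and 3.36, 3.3 and 3.87 in wild type. The groups did not overlap, and the variegated plants lay between the others with the widest spread. The rise was 2.33 ± 0.36 (SE), or 5.04-fold (adjusted p = 0.0189), while the step from wild type to variegated did not pass (adjusted p = 0.108). AT1G05340, a small cysteine-rich membrane protein, was at 7.54, 6.77 and 6.96 in stunted, 4.69, 5.04 and 4.87 in variegated and 4.38, 3.31 and 4.18 in wild-type plants. Its stunted arrays were more than 1 unit above every other array (rise of 2.23 ± 0.28 (SE), 4.68-fold, adjusted p = 0.00879). AT2G05540, a glycine-rich protein, averaged 8.74, 6.84 and 6.46 in stunted, variegated and wild-type plants (rise of 1.90 ± 0.33 (SE), adjusted p = 0.0273). All 3 calls ended without variegated replicate 1, with adjusted p over the omissions up to 0.0828, 0.0569 and 0.124, and with the actin covariate (0.0788, 0.0634 and 0.201). They passed in 6, 8 and 3 of the 9 omissions.

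**Figure D4:**
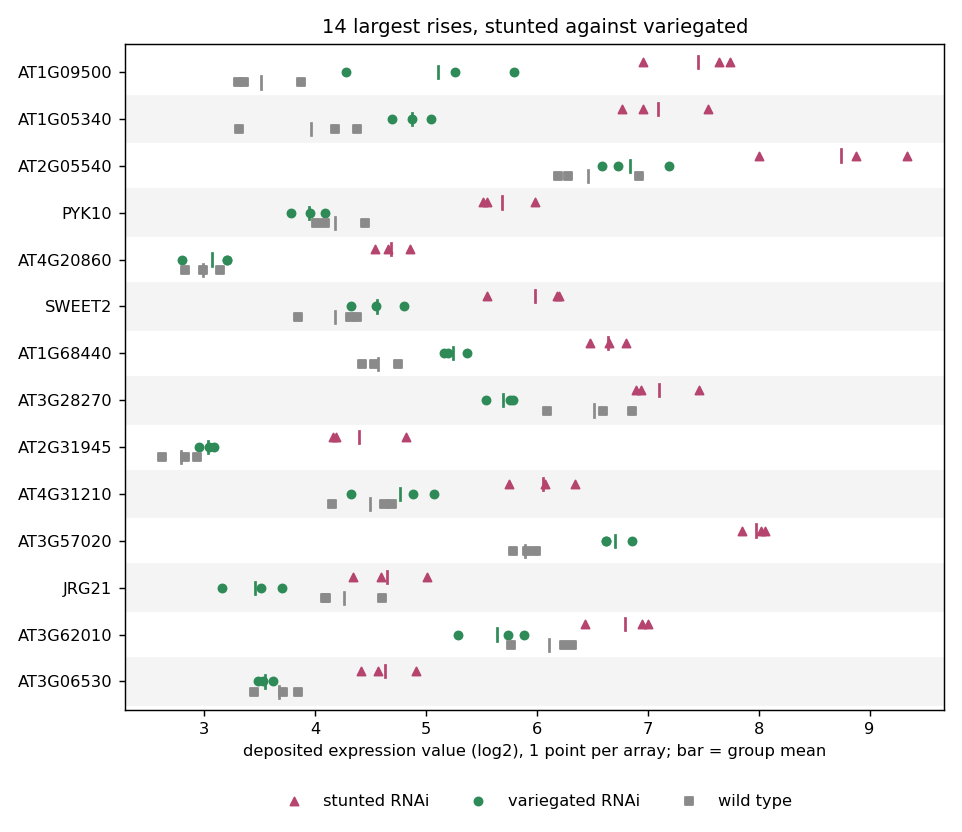
Expression values (log2, horizontal axis) of the 14 genes with the largest rises in stunted against variegated plants, 1 point per array and a bar at each group mean. The stunted arrays lie above all variegated arrays in each gene, and the wild-type mean is nearer the variegated mean in all but AT3G28270 and JRG21.

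Of 10 glucosinolate, myrosinase and ER-body genes, 3 rose (0.569% of all genes did) and none fell, and the list median was 0.30. The ER body is an endoplasmic reticulum compartment of the Brassicaceae that stores beta-glucosidases, and jacalin-type lectins are known to gather around those enzymes when tissue is damaged. PYK10, the main ER-body beta-glucosidase, was at 5.51, 5.55 and 5.98 in stunted, 3.78, 3.95 and 4.09 in variegated and 4.45, 4.09 and 4.01 in wild-type plants. Variegated and wild-type arrays overlapped and the stunted arrays were higher by 3.34-fold (log2 difference 1.74 ± 0.15 (SE), adjusted p = 0.0018), in every omission and with the actin covariate (0.0282). The lectin gene JAL22 averaged 3.98 in stunted, 3.27 in variegated and 3.34 in wild-type plants (rise of 0.71 ± 0.14 (SE), adjusted p = 0.0429). JAL34 averaged 4.0, 3.38 and 3.54 in the same order (rise of 0.62 ± 0.12 (SE), adjusted p = 0.0404). Among members that did not pass, JAL33 was at 0.60 (adjusted p = 0.0713), NAI2, which is needed to form ER bodies, was at 0.51 (0.217), and JAL23 was at -0.55 (0.527). AOP3, BCAT4 and UGT74B1 did not pass either.

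PYK10 is also strong in roots, and it was the 1 of 4 root markers that rose. The other 3 were EXPA7 at -0.21, EXPA18 at -0.26 and XTH26 at 0.00, each with group means between 2.74 and 3.05, near the floor of these values. The mean over the 4 root markers was 3.46 to 3.6 in stunted, 3.09 to 3.34 in variegated and 3.1 to 3.23 in wild-type arrays. That mean includes PYK10, and the median difference of the list was -0.11. JAL22 passed in 2 and JAL34 in 1 of the 9 omissions, with adjusted p up to 0.124 and 0.126, and with the actin covariate their adjusted p were 0.16 and 0.257.

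AT4G20860, an oxidase of the berberine-bridge-enzyme type, was at 4.85, 4.66 and 4.54 in stunted, 2.80, 3.2 and 3.2 in variegated and 2.82, 2.99 and 3.14 in wild-type plants. The latter groups overlapped near the floor of the values, and the stunted arrays stood 3.07-fold above the variegated ones (log2 difference 1.62 ± 0.13 (SE), adjusted p = 0.00151). AT3G57020, of the strictosidine synthase-like family, had 8.06, 8.02 and 7.85 in stunted, 6.62, 6.86 and 6.62 in variegated and 5.91, 5.78 and 5.99 in wild-type plants. It formed 3 separate steps in which wild type was lowest (rise from variegated to stunted of 1.27 ± 0.10 (SE), 2.42-fold, adjusted p = 0.00105). JRG21, an oxygenase that acts on jasmonate, averaged 4.65, 3.46 and 4.26, with stunted and wild-type arrays overlapping and the variegated arrays below both (rise of 1.19 ± 0.21 (SE), adjusted p = 0.0293).

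AT1G68440 was at 6.65, 6.48 and 6.80 in stunted, 5.20, 5.16 and 5.37 in variegated and 4.75, 4.42 and 4.53 in wild-type plants. It too formed 3 steps with wild type lowest (rise of 1.40 ± 0.11 (SE), 2.64-fold, adjusted p = 0.00134). AT4G20860, AT3G57020 and AT1G68440 passed in every omission and with the actin covariate (0.0251, 0.0143 and 0.0207). Single members of large enzyme families passed at smaller sizes: UGT76E11 among 47 glycosyltransferases (0.60), CYP71B6 among 23 cytochrome P450 genes (0.43) and GSTU16 among 14 glutathione transferases (0.55). Their means in stunted, variegated and wild-type plants were 4.13, 3.53 and 3.43 for UGT76E11, 6.32, 5.89 and 5.70 for CYP71B6 and 5.46, 4.90 and 4.62 for GSTU16. No member of those 3 families passed as lower. In the same order the family medians were 0.04, 0.0 and -0.06, with 29, 12 and 6 members above 0 and 18, 11 and 8 below. The calls of UGT76E11, CYP71B6, GSTU16 and JRG21 each ended without variegated replicate 1 (adjusted p over the omissions up to 0.107, 0.133, 0.157 and 0.121), and none passed with the actin covariate (0.171, 0.143, 0.301 and 0.102).

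SWEET2, a sugar transporter of the vacuole membrane, had 6.20, 6.18 and 5.55 in stunted plants, 4.55, 4.32 and 4.8 in variegated plants and 4.38, 4.31 and 3.84 in wild type. The variegated and wild-type arrays overlapped and all stunted arrays lay above them (rise of 1.42 ± 0.21 (SE), 2.68-fold, adjusted p = 0.016). The rise passed with the actin covariate (0.0422) and was lost without stunted replicate 2, variegated replicate 1 or variegated replicate 2 (up to 0.0818). Of 17 SWEET and other sugar transporter genes it was the 1 that passed, and the list median was 0.02. ATG8 proteins coat the membranes that autophagy uses to recycle cell contents. ATG8H was at 4.69, 4.67 and 4.74 in stunted, 4.0, 4.13 and 4.10 in variegated and 4.13, 3.91 and 3.94 in wild-type plants, which set the stunted arrays above overlapping variegated and wild-type arrays. The rise was 0.62 ± 0.08 (SE, 1.54-fold, adjusted p = 0.00879, and 0.0528 without variegated replicate 1). ATG8B averaged 5.05, 4.61 and 4.90 (rise of 0.44 ± 0.08 (SE), adjusted p = 0.0315, lost in 7 of 9 omissions). With the actin covariate ATG8H had an adjusted p = 0.0713 and ATG8B 0.245. The other 8 autophagy genes lay between -0.25 and 0.08, and the list median was 0.01.

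Among regulators and defence genes, the rises were small. WRKY22, a transcription factor of immunity and leaf ageing, averaged 3.73 in stunted, 3.29 in variegated and 3.1 in wild-type plants (rise of 0.44 ± 0.08 (SE), adjusted p = 0.0394) and was the 1 of 7 senescence genes that passed. THI2.2, an antimicrobial thionin, averaged 5.20, 4.49 and 3.74 (rise of 0.70 ± 0.12 (SE), adjusted p = 0.0286). SNZ, an AP2-type repressor of flowering, averaged 3.67, 3.17 and 3.27 (rise of 0.49 ± 0.07 (SE), adjusted p = 0.0177), and it was the 1 of 10 flowering genes that passed. None of these genes had overlapping stunted and variegated arrays, and wild type lay with or beyond the variegated arrays. Cpn60beta4, a chaperonin subunit of the plastid, averaged 6.77, 6.18 and 5.98 (rise of 0.59 ± 0.10 (SE), adjusted p = 0.0237). The 4 calls ended without variegated replicate 1, with adjusted p over the omissions up to 0.141, 0.0922, 0.0765 and 0.0908, and with the actin covariate (0.21, 0.082, 0.0623 and 0.16).

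The remaining large rises were AT4G31210, a DNA topoisomerase of type IA (means 6.05 in stunted, 4.76 in variegated and 4.49 in wild-type plants), and AT3G06530, a factor of the U3 small nucleolar particle that processes ribosomal RNA (4.63, 3.55 and 3.67). They rose by 1.29 ± 0.22 and 1.09 ± 0.14 (SE). AT2G31945 averaged 4.39, 3.03 and 2.79 and rose by 1.37 ± 0.17 (SE), and AT3G62010 averaged 6.79, 5.64 and 6.11 and rose by 1.16 ± 0.21 (SE). AT2G31945 passed with the actin covariate (adjusted p = 0.0408) and the other 3 did not (0.204, 0.0784 and 0.238). All 4 calls ended without variegated replicate 1, with adjusted p over the omissions up to 0.107 for AT4G31210, 0.0609 for AT3G06530, 0.0504 for AT2G31945 and 0.125 for AT3G62010.

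Of the 76 genes that rose, 5 had a wild-type mean nearer the stunted mean, and none of the 5 passed between variegated and wild-type plants (adjusted p from 0.12 to 0.217). AT3G28270 had 7.46, 6.94 and 6.89 in stunted, 5.76, 5.54 and 5.78 in variegated and 6.09, 6.86 and 6.6 in wild-type plants. Wild type lay in between and closer to the stunted arrays, and the rise from variegated to stunted was 1.40 ± 0.21 (SE, 2.65-fold, adjusted p = 0.016). AT3G49160, a pyruvate kinase-type enzyme, averaged 4.03, 3.27 and 3.68 (rise of 0.75 ± 0.12 (SE), adjusted p = 0.0237), and ZW9, a TRAF-like protein, averaged 7.75, 7.07 and 7.43 (rise of 0.68 ± 0.09 (SE), adjusted p = 0.00901). The other two were ATG8B and JRG21. The call of AT3G28270 ended without stunted replicate 2, variegated replicate 1 or variegated replicate 2 (up to 0.0748), that of AT3G49160 in 4 omissions (up to 0.0827) and that of ZW9 without variegated replicate 1 (0.0525). With the actin covariate their adjusted p were 0.0784, 0.173 and 0.0784.

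Of 69 plastid-encoded genes none rose or fell, although 61 were above 0, against 45.9% of all genes, and the median was 0.29. An unadjusted p under 0.05 was found for 6 of the 69 genes, a smaller share than the 13.7% of all genes: psbZ at 0.90, rpl22 at 0.89, rps3 at 0.85, rps2 at 0.76, rpoC2 at 0.55 and psbE at -0.30. The mean over the 69 genes was 7.82, 8.29 and 8.69 in stunted, 7.63, 8.09 and 8.17 in variegated and 8.05, 7.87 and 7.58 in wild-type plants, so the groups overlapped. As for the mitochondrial genes, how well the array labelling captures these transcripts was not tested. Nuclear factors for maintenance and expression of the organelle genomes, OSB1 and RNA editing factors among them, were all above 0 in the 10 genes measured. Their median was 0.26 and none passed the threshold. CRR21, an RNA editing factor of plastids, had the largest value, 0.72 (adjusted p = 0.219), and OTP84, another editing factor, was at 0.27 (0.132).

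**Figure D5:**
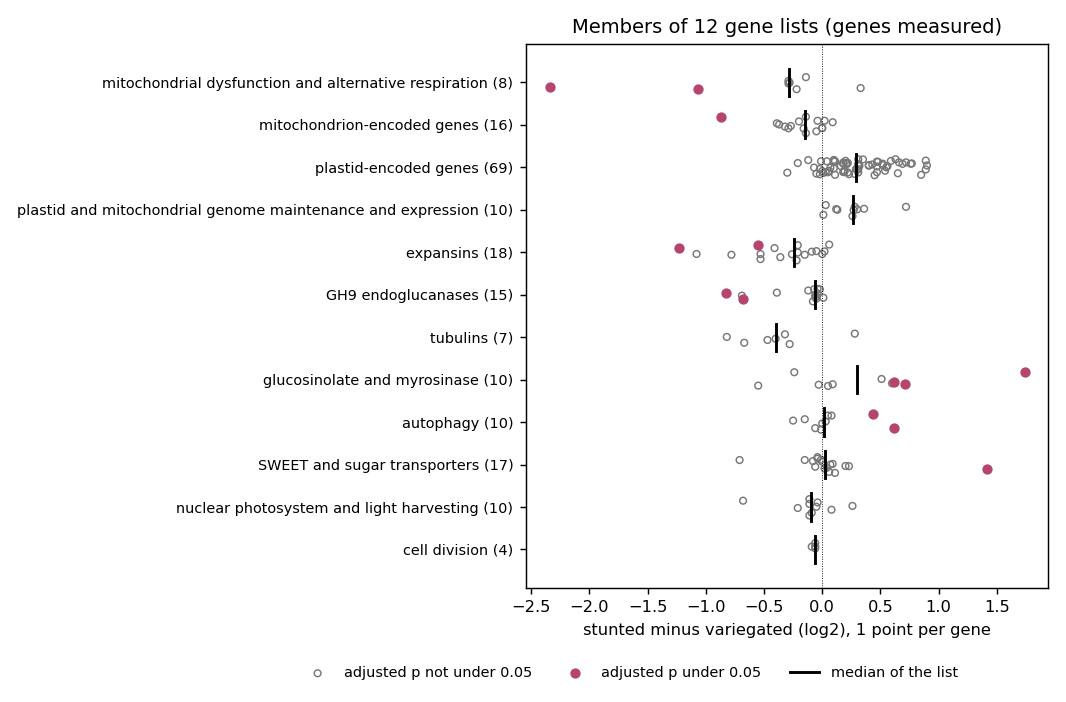
Difference between stunted and variegated plants (log2, horizontal axis) for the members of 12 gene lists, 1 point per gene, filled where the gene passed, with a bar at the list median and the number of genes measured in brackets. Medians range from -0.40 for tubulins to 0.30 for the glucosinolate, myrosinase and ER-body list.

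Markers of other cell types gave few calls. None of 8 floral organ markers (median -0.02), 4 pollen and anther markers (-0.04), 4 guard cell markers (0.05), 3 trichome markers (-0.06) or 3 shoot meristem markers (0.05) passed. Of the 55 lists with at least 3 measured genes, 27 had a member that passed and 28 had none. Auxin (10 genes, median -0.01), MADS box factors (40 genes, 0.00), histones (7 genes, -0.04) and Calvin cycle genes (5 genes, 0.08) were among those with none. Many well-known genes have no probe set with a listed name here and were not analysed. Of the 396 probe sets that passed, 206 had no single listed gene and could not be named, 121 of them higher and 85 lower, with differences up to 2.86 and down to -2.07.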

How the data were processed

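RNA from wild-type, variegated and stunted plants was hybridised to Affymetrix arrays, 3 per group. The deposited values are log2 expression values, for which the submitters' processing notes name RMA and affy without versions. How background was subtracted is not stated there, and low values (lowest per array 1.98 to 2.22, medians 3.37 to 3.43) have an unknown scale. Such processing sets arrays to a common distribution, and a shift of most transcripts one way would not be seen. The number of arrays limits the precision. The labels call the arrays of a group biological replicates and do not say more of their source, so p-values measure the spread between these samples.

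The 64 array controls were kept out, and limma 3.58.1 (R 4.3.3) was fitted to 22746 probe sets with 1 mean per group over all 9 arrays and two-sided contrasts. Every adjusted p-value is limma's (Benjamini-Hochberg over all probe sets), and SE is the moderated standard error. Single control signals were compared by an exact permutation test, which did not pair arrays by replicate number. The platform table, which is old, gave 1 gene for 13513 probe sets (59.4%), several for 503 and none for 8730. The brightest probe set represented a gene, leaving 13355 genes, of which 13333 were found in a reference gene table of TAIR10.1 used for names alone. No positions or sequences are given.

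Of 86 gene lists, 55 had 3 or more measured genes. Comparison, lists and members were chosen with earlier results of these data known. Named genes were the 14 largest rises and falls that passed without overlapping arrays, up to 3 passed members with the smallest p per list of 3 or more, the 5 largest rises and falls with wild type nearer the stunted mean, and any gene past both comparisons with wild type in opposite directions (0 genes). On simulated arrays with 200 of 22746 probe sets changed, 53.7% of changes of 0.5, 95.5% of 1 and 100% of 2 were recovered, with 10 false among 176 calls. The simulated noise was independent between probe sets and arrays, so these rates need not hold for the real arrays. Alternatives were a replicate block, array weights, quantile normalization, the 6 RNAi arrays alone, robust moderation, median centring, an intensity trend, leaving out the dimmest 30% of probe sets, actin and 25S rRNA signals as covariates, each array left out, and the mean over a gene's probe sets.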

Additional observations from a re-analysis of the deposited data

Results flagged for a closer look

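In 8 named genes every stunted array lay on one side of all wild-type arrays and every variegated array on the other. Their mean differences from wild type thus had opposite signs in the 2 phenotypes. The gap between these differences is the stunted against variegated contrast. Named genes were chosen for passing that contrast in limma, so the passing of all 8 is not separate evidence. The share of all genes with this order is not given here. Lower in stunted and higher in variegated plants than in wild type were DI21 (stunted minus variegated -1.27), nad1 (-0.87) and EXPB1 (-0.55). For DI21 the difference from wild type was -0.94 in stunted plants (adjusted p = 0.00038) and 0.33 in variegated plants (0.125). For nad1 these were -0.11 (0.626) and 0.76 (0.0213), and for EXPB1 -0.25 (0.152) and 0.30 (0.249). Higher in stunted and lower in variegated plants than in wild type were ATG8B (0.44), JAL34 (0.62), ZW9 (0.68), AT3G49160 (0.75) and AT3G28270 (1.40). For ZW9 the difference from wild type was 0.32 in stunted plants (adjusted p = 0.0473) and -0.36 in variegated plants (0.12). None of the 8 genes passed in both comparisons with wild type, which share the wild-type arrays.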

How the results depend on the processing

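No named gene changed direction under any setting counted for named genes, which left out the mean over a gene's probe sets. For the omissions this was fixed in advance, because the stunted and variegated arrays of each named gene did not overlap. Of 51 named genes, 10 passed in all 9 omissions of an array. Over those omissions the number of probe sets past the threshold ranged from 48 to 1404, with 26 to 698 higher and 22 to 706 lower. The named genes that lost their call numbered 41 without variegated replicate 1, 29 without stunted replicate 2 or variegated replicate 2, and 0 without stunted replicate 1. The actin signal as a covariate left 79 probe sets past the threshold (37 higher, 42 lower), and 40 named genes lost their call. In the 6 RNAi arrays alone, which leave fewer samples for the spread, 133 passed (62 higher, 71 lower) and 28 named genes lost their call. With array weights 1028 passed (499 higher, 529 lower), among them all 396. The causes were not tested. The share of calls that were higher was 50.0% as reported, and the other settings that did not leave out an array gave 43.8% to 57.2%. The 25S covariate, intensity trend, robust moderation, median centring, quantile normalization and the filter on dim probe sets each gave 365 to 488 calls, and cost 0 to 4 named genes their call. With the replicate number as a block, 940 probe sets passed (538 higher, 402 lower), 392 of them among the 396, and no named gene lost its call. The labels do not say that a number marks a shared plant, litter or day. Deviations of same-numbered stunted and variegated arrays correlated at 0.252, 0.007 and 0.281, and those of different-numbered arrays at -0.28 to 0.045. Whether same-numbered arrays share an effect was not tested. The reported model used no pairing because the labels state none. Of 1099 list medians recomputed under the alternatives, 32 moved beyond the spread between replicates.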

Other observations

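Genes outside the lists above were chosen for description after their values were seen, so they speak for no group or pathway. WLIM2a and WLIM1, which bundle actin filaments, averaged 5.85 and 6.52 in stunted, 6.90 and 7.42 in variegated and 7.16 and 7.74 in wild-type plants. They fell by 1.05 ± 0.08 and 0.90 ± 0.11 (SE), with adjusted p = 0.00105 and 0.00831. WLIM2a passed in all 9 omissions and with the actin covariate (0.0143), and WLIM1 missed without variegated replicate 1 (0.0504) and with the actin covariate (0.0745). SPR1, a microtubule-associated protein needed for straight growth, averaged 8.05, 8.72 and 8.95 (fall of 0.66 ± 0.09 (SE), adjusted p = 0.0143, up to 0.0748 in 3 omissions, and 0.0987 with the actin covariate). AT3G16850, of the pectin lyase-like superfamily, averaged 5.95, 6.83 and 6.67 and passed in every omission and with the actin covariate (fall of 0.88 ± 0.09 (SE), adjusted p = 0.00482, and 0.0479 with the covariate). The pectate lyase-type AT1G04680 and AT1G67750 fell by 0.92 ± 0.17 and 0.72 ± 0.11 (SE), with adjusted p = 0.0332 and 0.016, both lost without variegated replicate 1 and with the actin covariate (0.224 and 0.124). They passed in 3 and 6 of the 9 omissions. The listed pectin enzymes ADPG1 and PME61 did not pass, at -0.07 (adjusted p = 0.729) and -0.23 (0.372).

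Higher in stunted plants were NRPA2, a subunit of RNA polymerase I, which transcribes ribosomal RNA genes (means 6.02 in stunted, 5.08 in variegated and 4.54 in wild-type plants), and the pentatricopeptide-repeat proteins AT3G22150 (5.37, 4.52 and 4.19) and AT2G18940 (5.57, 4.91 and 4.67), a family that acts on organelle transcripts. They rose by 0.94 ± 0.13, 0.86 ± 0.12 and 0.66 ± 0.11 (SE), with adjusted p = 0.012, 0.0148 and 0.025. All 3 calls ended without stunted replicate 2 or variegated replicate 1 (up to 0.0669, 0.0699 and 0.101). With the actin covariate NRPA2 (0.0396) and AT2G18940 (0.0282) passed and AT3G22150 did not (0.0902). The universal stress protein AT3G03270 averaged 5.18 in stunted, 6.21 in variegated and 5.16 in wild-type plants (fall of 1.03 ± 0.15 (SE), adjusted p = 0.0142, up to 0.0677 in 3 omissions, and 0.108 with the actin covariate).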
